A study of Homo sapiens with 9 samples.

Results

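The TGF-beta and BMP pathway was followed through 10 genes in parental and cetuximab-resistant cells of the colorectal cancer cell line LIM1215. The genes were taken by name and were the ligands TGFB1 and BMP4, the receptors TGFBR1 and TGFBR2, and the pseudoreceptor BAMBI. The others were the signal transducer SMAD3, the inhibitory SMAD7, and the transcriptional regulators ID1, ID2 and ID3. All 10 were among the 58920 genes listed in each of the 9 count files, and all 10 were among the 19102 genes that entered the tests because their counts over all 9 libraries came to 10 or more. LIM1215-R1 and LIM1215-R2 (R1 and R2, labelled Resistant_1 and Resistant_2) are mixed, non-clonal populations that were derived separately from LIM1215 by months of growth in rising concentrations of cetuximab, an antibody against the EGF receptor. LIM1215-parental cells were kept alongside them without the antibody, and all cells were sequenced from culture without added drug, with 3 libraries per line. The replicates were described as technical, so the p-values measure the spread between these libraries, and a difference between the lines cannot be told apart from a difference in culture or harvest. A change in every cell also cannot be told apart from a change in the share of cells that express a gene.

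Ligands of the TGF-beta family are secreted proteins that bring type I and type II receptor kinases together on the cell surface. TGF-beta itself acts through TGFBR2 and TGFBR1 and phosphorylates SMAD2 and SMAD3, whereas BMPs phosphorylate SMAD1, SMAD5 and SMAD9, and both branches use SMAD4 as a shared partner. The ID genes are classical targets of the BMP branch and encode helix-loop-helix proteins without a DNA-binding domain, which hold back differentiation factors. In the gut epithelium, BMP signals are linked to differentiation along the crypt, TGF-beta signals restrain growth, and many colorectal tumours lose parts of either branch.

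Total counts lay between 13737416 and 18725014 per library. Levels are given in CPM, the usual measure of counts relative to the library total, here scaled by the TMM method. Of 8 markers of colorectal epithelium, 7 were expressed in all libraries and KRT20 had no count in any, and the 8 markers summed to between 12220 and 15770 CPM. The 8 fibroblast markers together reached at most 3.19 CPM and the 4 endothelial markers at most 0.722 CPM in any library. The 5 leukocyte markers summed to 6.96 to 10.1 CPM in LIM1215-parental, 11.9 to 14.4 CPM in R1 and 8.56 to 10.5 CPM in R2, and PTPRC and CD3E among them had no count.

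Both ligands and TGFBR1 were higher in both resistant lines, whereas ID1 and ID2 were lower in both. ID3 was lower and BAMBI higher in R1, neither passed the test in R2, and for both genes R1 and R2 also differed from each other. At an adjusted p of 0.01 or less, from the quasi-likelihood test of edgeR after Benjamini-Hochberg adjustment, 4 of the 10 genes were higher in R1 than in LIM1215-parental and 3 were lower. Among all genes tested, 14% were higher and 13.4% lower in that comparison. R2 had 3 of the 10 higher and 2 lower, beside 12.3% higher and 11.6% lower among all genes. The median log2 fold change of the 10 genes was −0.10 in R1 and −0.13 in R2, beside −0.01 and 0.00 over all genes.

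The changes were small in size. Differentially expressed genes (DEGs), which also need a log2 fold change of 1.5 or more in size, made up 5.14% of all genes in R1 and 4.82% in R2. Neither edgeR nor DESeq2 placed any of the 10 genes among them, although 8 of the 10 had an unadjusted p under 0.05 in R1 and 8 in R2 with edgeR. The largest change was that of BMP4 in R2, the only 1 of the 10 whose log2 fold change reached 1 in size.

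**Figure D1:**
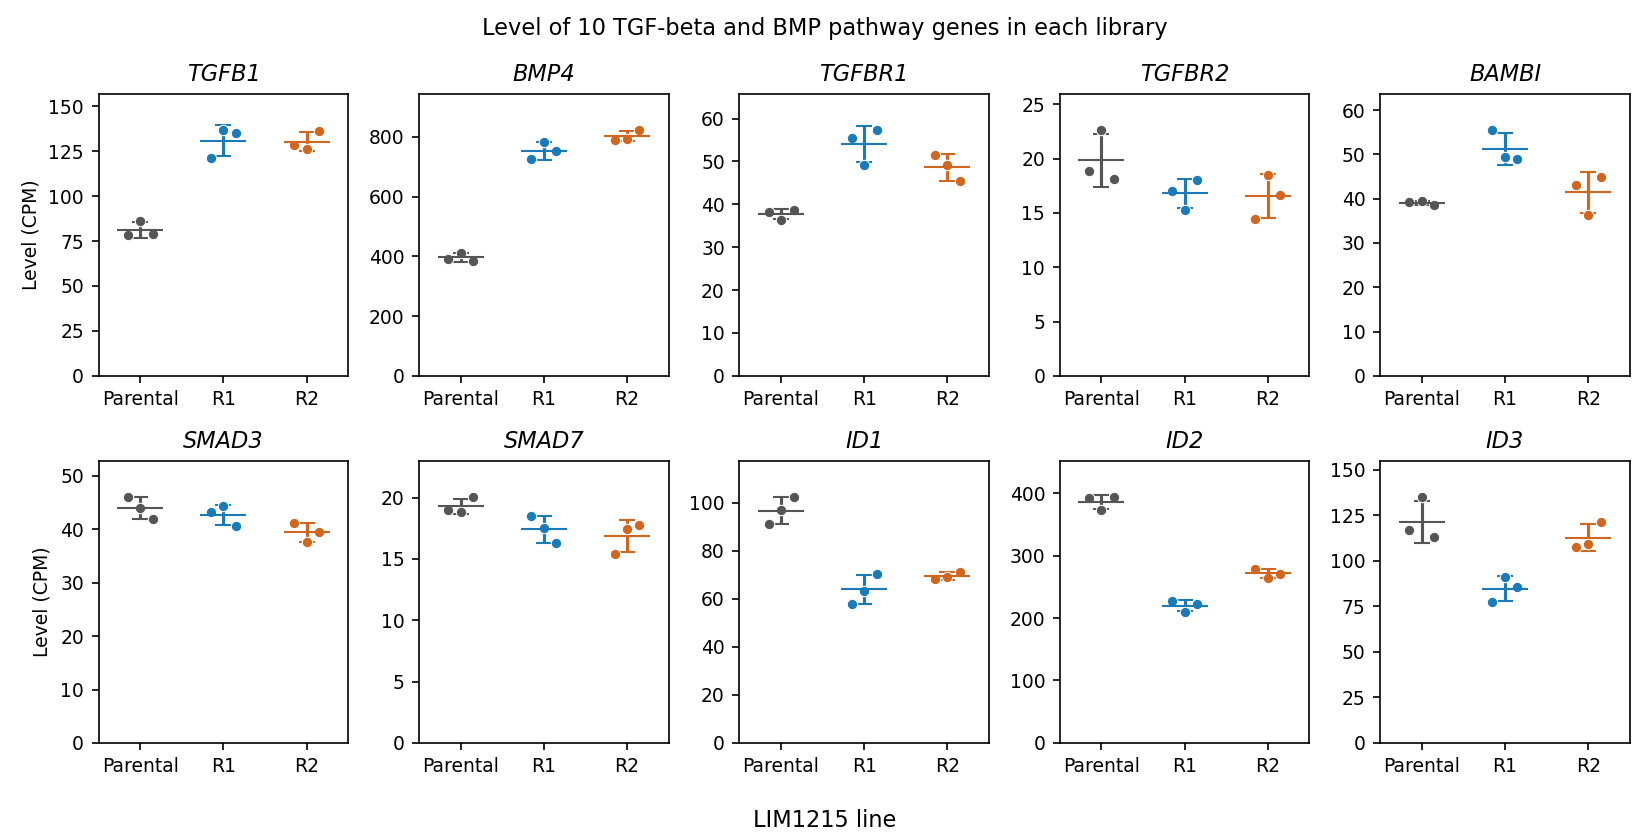
Levels of the 10 genes in CPM on the vertical axis in LIM1215-parental, R1 and R2, with 1 point per library, the mean as a horizontal line and the SD as an error bar (n = 3). TGFB1 and BMP4 lie higher in all resistant libraries than in the parental ones, and ID1 and ID2 lie lower in all of them.

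BMP4 encodes a secreted ligand of the BMP branch and lies at chr14:53949736-53958761 on the minus strand (hg38, GENCODE annotation). Its level was 393, 412 and 384 CPM in the 3 LIM1215-parental libraries, 724, 784 and 753 CPM in R1 and 790, 794 and 822 CPM in R2. All 6 resistant libraries were above all parental ones. In R1 BMP4 was 1.90-fold higher (log2 fold change 0.93 ± 0.04 SE, edgeR adjusted p = 1.92e-16), and in R2 it was 2.02-fold higher (1.02 ± 0.04 SE, edgeR adjusted p = 2.63e-17). The R2 libraries were also above those of R1, but the difference of 0.09 in log2 fold change (95% interval 0.01 to 0.17) did not pass the test (edgeR adjusted p = 0.16).

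TGFB1 encodes the founding ligand of the family, which is secreted in a latent complex, and lies at chr19:41301587-41353922 on the minus strand. It was at 78.3, 86.2 and 78.9 CPM in LIM1215-parental, at 121, 137 and 135 CPM in R1 and at 128, 126 and 136 CPM in R2. Every resistant library exceeded every parental library, and the resistant lines overlapped. TGFB1 rose 1.62-fold in R1 (log2 fold change 0.69 ± 0.06 SE, edgeR adjusted p = 1.47e-10) and 1.61-fold in R2 (0.69 ± 0.06 SE, edgeR adjusted p = 1.83e-10). Between the resistant lines the log2 difference was −0.01, with a 95% interval from −0.12 to 0.11.

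TGFBR1 encodes the type I receptor kinase that phosphorylates SMAD2 and SMAD3 (chr9:99104038-99154192, plus strand). Its libraries gave 38.2, 36.3 and 38.7 CPM in LIM1215-parental, 55.6, 49.2 and 57.3 CPM in R1 and 51.5, 49.1 and 45.3 CPM in R2. No resistant library fell within the parental range. The increase was 1.43-fold in R1 (log2 fold change 0.51 ± 0.07 SE, edgeR adjusted p = 1.09e-06) and 1.29-fold in R2 (0.36 ± 0.07 SE, edgeR adjusted p = 0.000168). R2 was below R1 by 0.15 on the log2 scale (95% interval −0.29 to −0.01), which did not pass the test (edgeR adjusted p = 0.168).

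TGFBR2 encodes the type II receptor, which binds TGF-beta first (chr3:30606601-30694142, plus strand). It did not follow TGFBR1: its level was 18.8, 22.6 and 18.1 CPM in LIM1215-parental, 17.1, 15.3 and 18 CPM in R1 and 14.5, 18.5 and 16.7 CPM in R2. The R1 libraries lay just under the parental ones, and those of R2 overlapped with them. The log2 fold changes of −0.23 (95% interval −0.45 to −0.02) and −0.26 (95% interval −0.47 to −0.04) did not pass the test (edgeR adjusted p = 0.0831 and 0.0609). With 243 to 345 counts per library, TGFBR2 had the widest intervals of the 10 genes. Counts per gene carry no information on its coding sequence, which is a known site of mutation in colorectal tumours with mismatch repair defects.

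BAMBI encodes a transmembrane pseudoreceptor without a kinase domain that dampens both branches (chr10:28677510-28682932, plus strand). Its level was 39.2, 39.5 and 38.6 CPM in LIM1215-parental, 55.5, 49.4 and 49.1 CPM in R1 and 43.1, 36.2 and 44.9 CPM in R2. R1 stood above both other lines, and R2 spanned the parental values. BAMBI rose 1.31-fold in R1 (log2 fold change 0.39 ± 0.07 SE, edgeR adjusted p = 0.000122). The log2 fold change in R2 was 0.08 (95% interval −0.07 to 0.24, edgeR adjusted p = 0.463).

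SMAD3 encodes the transducer that carries the TGF-beta signal into the nucleus (chr15:67063763-67195173, plus strand). It varied little, with 46.0, 44.1 and 41.9 CPM in LIM1215-parental, 43.2, 44.4 and 40.6 CPM in R1 and 41.2, 37.6 and 39.5 CPM in R2. The log2 fold change was −0.04 in R1 (95% interval −0.18 to 0.10) and −0.16 in R2 (95% interval −0.29 to −0.02), and neither passed the test (edgeR adjusted p = 0.701 and 0.0797). These intervals leave out a change as large as that of TGFB1 or BMP4.

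SMAD7 encodes an inhibitory SMAD that is itself induced by TGF-beta and blocks the type I receptor (chr18:48919853-48950965, minus strand). Its level was 19, 18.9 and 20.0 CPM in LIM1215-parental, 18.5, 17.5 and 16.3 CPM in R1 and 15.4, 17.4 and 17.8 CPM in R2. All resistant libraries were slightly below the parental ones. The log2 fold changes of −0.15 (95% interval −0.33 to 0.03) and −0.20 (95% interval −0.38 to −0.01) did not pass the test (edgeR adjusted p = 0.213 and 0.096). After removal of the dependence of each library on GC content and transcript length, they were −0.27 and −0.28 and passed (edgeR adjusted p = 0.00883 and 0.00748).

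The 3 ID genes lie on different chromosomes. The 250 bases before their start sites are shown here because the ID genes are the pathway's best known direct targets. They are also the members that passed the test as lower, ID1 and ID2 in both resistant lines and ID3 in R1 only. The sequences are from RefSeq (GRCh38.p14) and read 5′ to 3′ along the gene, and capitals mark the SMAD box GTCT on either strand (AGAC on the other strand). The windows are chr20:31605039-31605288 on the plus strand for ID1, chr2:8681806-8682055 on the plus strand for ID2 and chr1:23559502-23559751 on the minus strand for ID3.
ID1: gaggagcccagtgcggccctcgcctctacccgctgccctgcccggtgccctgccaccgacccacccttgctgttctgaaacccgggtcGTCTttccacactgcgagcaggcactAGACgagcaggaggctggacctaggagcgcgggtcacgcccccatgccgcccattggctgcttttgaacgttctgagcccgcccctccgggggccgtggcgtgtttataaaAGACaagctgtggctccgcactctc
ID2: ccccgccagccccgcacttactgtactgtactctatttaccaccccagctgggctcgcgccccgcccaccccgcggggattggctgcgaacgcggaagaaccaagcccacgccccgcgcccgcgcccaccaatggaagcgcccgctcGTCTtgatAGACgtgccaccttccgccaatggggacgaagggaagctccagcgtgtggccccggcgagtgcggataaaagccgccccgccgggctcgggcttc
ID3: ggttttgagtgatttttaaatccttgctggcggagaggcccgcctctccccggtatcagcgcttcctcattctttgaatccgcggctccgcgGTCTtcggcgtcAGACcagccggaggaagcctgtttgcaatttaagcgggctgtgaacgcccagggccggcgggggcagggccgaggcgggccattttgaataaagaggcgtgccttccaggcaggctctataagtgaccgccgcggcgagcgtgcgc
The box occurred 3 times in the window of ID1 and 2 times in those of ID2 and ID3, and 77.5% of all 35116 promoter windows of this length held it.

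A longer motif is rarer. One form of BMP-responsive element pairs the GC-rich SMAD site GGCGCC with a SMAD box at a spacing of 5 bases, which is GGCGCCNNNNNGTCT. Other spacings were not searched, so a gene without this match may still hold another form. In the 5000 bases before the start sites of the 10 genes, searched on both strands, it was present at ID2 and ID3 only, and 0.524% of the 27305 genes searched held it. At ID2 it lay 3114 bases before the RefSeq start site, at chr2:8678942-8678956, where GENCODE annotates an exon of a longer ID2 transcript. At ID3 it lay 2962 bases before the start site, at chr1:23562449-23562463, outside any annotated gene. Each is shown with 7 bases on either side and with both parts of the motif in capitals.
ID2 element: cgcgcctGGCGCCagagaGTCTgctccgg
ID3 element: ccaccctGGCGCCaggctGTCTggggctg
These matches describe the sequence, and no measurement of SMAD binding was made. ID1, which has no match in this window, fell together with ID2 in both lines, and ID3, which has a match, passed the test in R1 only. A link between the matches and these changes was not tested.

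ID2 was the most abundant of the 3 ID genes per length and changed the most (chr2:8678845-8684461, plus strand). It was at 392, 373 and 393 CPM in LIM1215-parental, at 227, 211 and 222 CPM in R1 and at 279, 265 and 271 CPM in R2. The 3 lines did not overlap. ID2 fell by 43.0% in R1 (log2 fold change −0.81 ± 0.04 SE, edgeR adjusted p = 2.11e-14) and fell by 29.7% in R2 (−0.51 ± 0.04 SE, edgeR adjusted p = 2.94e-10).

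ID1 was at 91.1, 96.8 and 102 CPM in LIM1215-parental, at 57.9, 63.4 and 70.3 CPM in R1 and at 68.1, 68.9 and 71.3 CPM in R2 (chr20:31605283-31606515, plus strand). All resistant libraries were below all parental ones, and the resistant lines overlapped. The decrease was 34.0% in R1 (log2 fold change −0.60 ± 0.06 SE, edgeR adjusted p = 1.93e-08) and 28.2% in R2 (−0.48 ± 0.06 SE, edgeR adjusted p = 8.04e-07).

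ID3 behaved differently in the 2 resistant lines (chr1:23557926-23559501, minus strand). Its level was 117, 135 and 113 CPM in LIM1215-parental, 77.6, 91.1 and 85.5 CPM in R1 and 108, 109 and 121 CPM in R2. R1 was below both other lines, whereas R2 overlapped with LIM1215-parental. ID3 fell by 30.2% in R1 (log2 fold change −0.52 ± 0.07 SE, edgeR adjusted p = 4.85e-07). In R2 the log2 fold change of −0.11 (95% interval −0.24 to 0.03) did not pass the test (edgeR adjusted p = 0.245). Summed over ID1, ID2 and ID3, the level was 600 to 609 CPM in LIM1215-parental, 363 to 378 CPM in R1 and 443 to 464 CPM in R2.

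The resistant lines were then compared directly, which tests whether their changes against LIM1215-parental differ. In R2 against R1, 2 of the 10 genes were higher and 1 lower, and among all genes 3.39% were higher, 3.77% lower and 0.764% DEGs. ID3 was 1.33-fold higher in R2 (log2 fold change 0.41 ± 0.07 SE, edgeR adjusted p = 9.06e-05) and ID2 1.23-fold higher (0.30 ± 0.04 SE, edgeR adjusted p = 1.94e-05). BAMBI was lower in R2 by 19.3% (log2 fold change −0.31 ± 0.07 SE, edgeR adjusted p = 0.00527). These 3 genes, taken because they passed this test, all lay closer to the parental level in R2. ID2 and ID3 had fallen in R1 and BAMBI had risen there. The other 7 genes did not pass. By their log2 fold changes TGFBR1 and ID1 also lay closer in R2, and TGFB1 was nearly equal in both lines. BMP4, TGFBR2, SMAD3 and SMAD7 lay further from the parental level in R2.

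The call of BAMBI was lost without any 1 of 4 libraries, with log2 fold changes from −0.34 to −0.22. The adjusted p of edgeR rose to 0.0303 without R1 replicate 1, 0.0126 without R1 replicate 3, 0.0159 without R2 replicate 1 and 0.0781 without R2 replicate 2. ID2 and ID3 passed the test with any single library left out. After removal of the dependence on GC content and length, 6 of the 10 genes differed between the resistant lines. The added genes were TGFBR1 (log2 fold change −0.26, edgeR adjusted p = 0.000345), BMP4 (0.16, edgeR adjusted p = 2.81e-05) and ID1 (0.23, edgeR adjusted p = 0.00275).

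**Figure D2:**
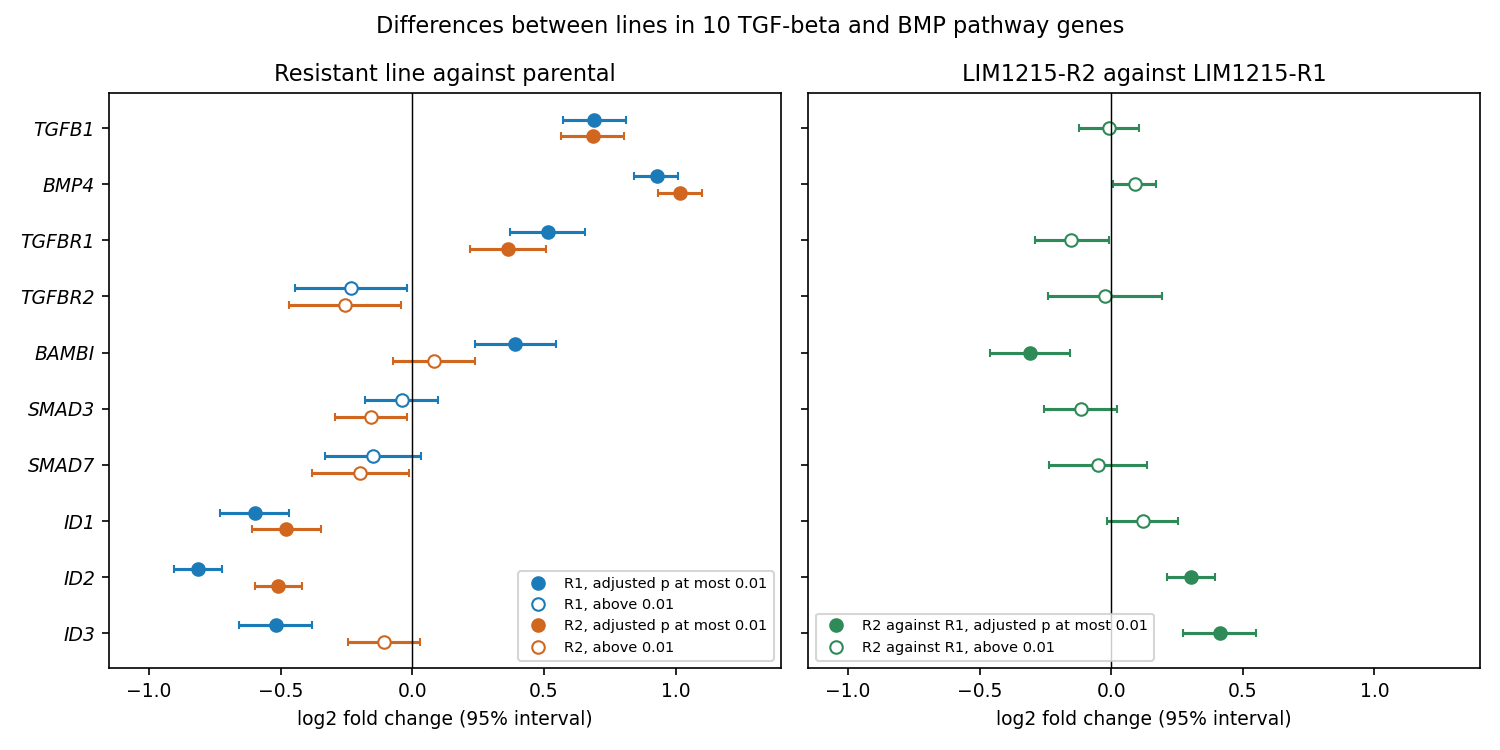
Log2 fold changes of the 10 genes with 95% intervals on the horizontal axis, for each resistant line against LIM1215-parental (left) and for R2 against R1 (right), with filled points at an adjusted p of at most 0.01. ID2, ID3 and BAMBI are the 3 filled points on the right.

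Levels were compared between genes per length, as CPM per kb of the main transcript. In LIM1215-parental, ID2 was the highest of the 10 with 297 ± 8.84 CPM per kb (SD, n = 3), followed by BMP4 with 205 ± 7.58. In both resistant lines this order was turned, with BMP4 at 390 ± 15.3 in R1 and 415 ± 9.02 CPM per kb in R2, and ID2 at 169 ± 6.66 and 209 ± 5.42 CPM per kb. ID3, ID1, TGFB1 and BAMBI followed in this order in each line, from 128 to 23.1 CPM per kb in LIM1215-parental. The receptors and SMADs were the lowest, with SMAD3 at 6.80, TGFBR1 at 5.82, SMAD7 at 5.77 and TGFBR2 at 4.38 CPM per kb in LIM1215-parental. TGFBR1 and SMAD7 overlapped there and were the only neighbours in the order of any line whose libraries did. TGFBR1 was above SMAD3 in both resistant lines, with 8.32 against 6.61 CPM per kb in R1 and 7.49 against 6.10 in R2.

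**Figure D3:**
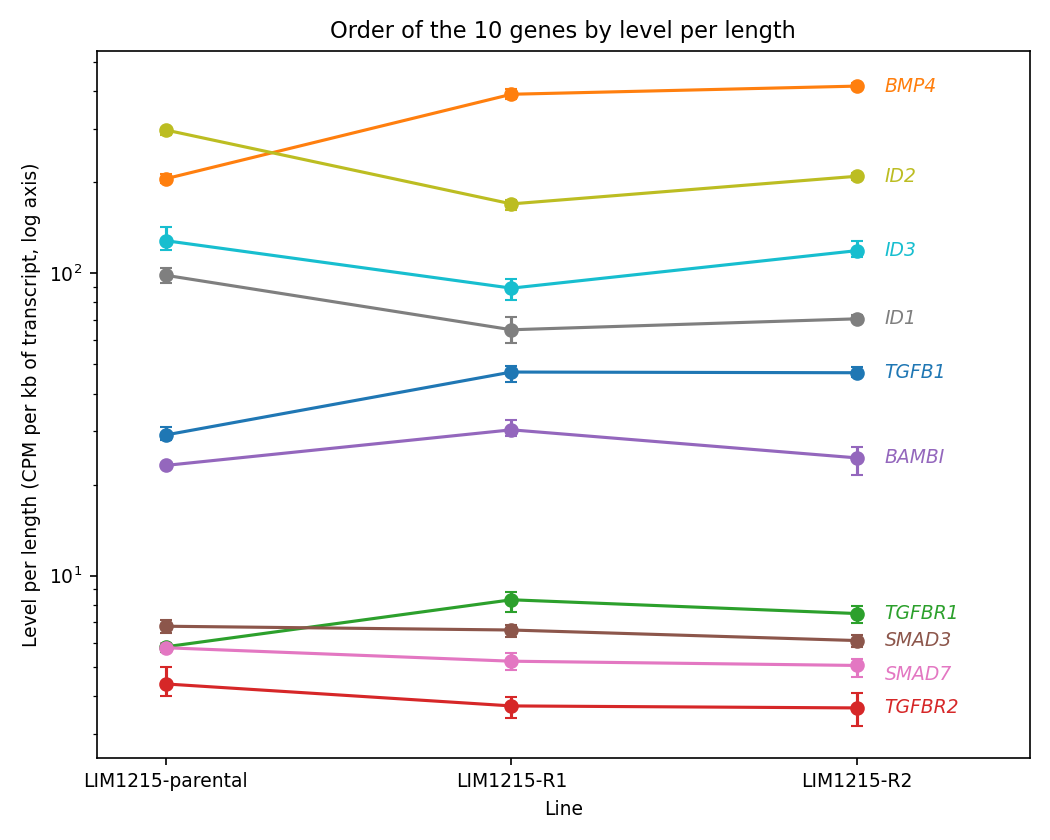
Mean level per length of the 10 genes in CPM per kb of transcript on a log axis, in the 3 lines, with error bars from the lowest to the highest of 3 libraries. BMP4 and ID2 exchange the first place between LIM1215-parental and the resistant lines, and TGFBR1 moves above SMAD3.

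Beyond these 10, 107 further genes of the pathway were followed, listed by their place in it. Of these, 93 had a count in some library and 79 had enough counts for the test. R1 had 19 of the 79 higher and 17 lower, with 10 DEGs, beside 14% higher, 13.4% lower and 5.14% DEGs among all genes. R2 had 17 higher and 16 lower, with 8 DEGs, beside 12.3%, 11.6% and 4.82%. The median log2 fold change of the 79 genes was 0.00 in both lines, beside −0.01 and 0.00 over all genes.

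Of 13 other receptors and co-receptors tested with edgeR, 8 were lower in R1 and 7 in R2, beside 13.4% and 11.6% of all genes, with median log2 fold changes of −0.34 and −0.32. DESeq2 called 8 of them lower in R1 and 6 in R2. None was higher in either line at the adjusted limit with edgeR or DESeq2, and at an unadjusted p under 0.05 from edgeR 1 was higher in R1 and 1 in R2. These were ACVRL1, with 10 counts over the R1 libraries and none over the other lines, and TDGF1 in R2 (log2 fold change 0.36, edgeR adjusted p = 0.108), both picked after their values were seen. ACVR1C, a type I receptor for activin-like ligands, fell from 15.1 ± 1.27 CPM (SD, n = 3) in LIM1215-parental to 6.67 ± 0.96 in R1 (log2 fold change −1.18, edgeR adjusted p = 2.33e-08) and 5.32 ± 0.97 CPM in R2 (−1.51, edgeR adjusted p = 4.8e-10). The co-receptor TGFBR3, which presents TGF-beta to TGFBR2, fell from 62.6 ± 2.36 CPM to 33.7 ± 1.76 CPM (log2 fold change −0.89) and 43.0 ± 0.41 CPM (−0.54). RGMA and RGMB, co-receptors for BMPs, fell as well, by 1.04 and 0.59 on the log2 scale in R1 and by 0.68 and 0.64 in R2. BMPR1B, a type I BMP receptor of low level that was picked after its values were seen, had 35 counts over the LIM1215-parental libraries, 1 over R1 and 3 over R2.

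Among the other ligands, R1 had 4 of 15 tested higher and 1 lower, beside 14% and 13.4% of all genes, and R2 had 5 higher, beside 12.3%. GDF15, a distant family member known as a stress-induced cytokine, rose from 172 ± 11.8 CPM in LIM1215-parental to 518 ± 26.8 CPM in R1 (log2 fold change 1.60, edgeR adjusted p = 3.44e-19) and 407 ± 20.7 CPM in R2 (1.25, edgeR adjusted p = 6.44e-17). TGFB2 rose from 0.680 ± 0.23 CPM to 2.03 ± 0.71 CPM (log2 fold change 1.53) and 1.84 ± 0.11 CPM (1.39). INHBB, which encodes an activin subunit, had 2 counts over the LIM1215-parental libraries, 50 over R1 and 21 over R2, a ratio of 25.8 (95% counting interval 6.79 to 219) and of 10.8 (95% counting interval 2.65 to 95.4). Both parental counts were in replicate 1, and without it INHBB was at least 11.4-fold higher in R1 and at least 4.77-fold higher in R2, against 3 counts over the parental libraries left. Without LIM1215-parental replicate 3 the ratios were 16.0 (95% counting interval 4.19 to 135) and 6.70 (95% counting interval 1.64 to 58.9). The INHBB call in R2 was lost without LIM1215-parental replicate 3 (edgeR adjusted p = 0.021) or R2 replicate 3 (edgeR adjusted p = 0.0148), and with DESeq2 (adjusted p = 0.0125). BMP2, a BMP ligand, moved against BMP4 and fell from 4.94 ± 0.32 CPM to 2.47 ± 0.32 CPM in R1 (log2 fold change −0.996, edgeR adjusted p = 0.000111). In R2 BMP2 was at 3.46 ± 0.82 CPM (−0.50, edgeR adjusted p = 0.0297), which passed only without R2 replicate 1 (−0.72, edgeR adjusted p = 0.00656). BMP7 and BMP8B, BMP ligands picked after their values were seen, did not follow BMP2. BMP7 rose from 64.4 CPM to 89.6 CPM in R1 (0.475, edgeR adjusted p = 1.1e-07) and 90.6 CPM in R2 (0.491, edgeR adjusted p = 6.01e-08). BMP8B rose from 13.2 CPM to 21.5 CPM in R2 (0.706, edgeR adjusted p = 2.73e-07). In R1 BMP8B did not pass the test (−0.016, edgeR adjusted p = 0.921).

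Of the 10 genes tested for the latency and activation of TGF-beta, R1 had 4 higher and 2 lower (14% and 13.4% among all genes), and R2 had 2 higher and 3 lower (12.3% and 11.6%). The latent TGF-beta binding proteins, which hold the latent ligand in the matrix, did not move together. LTBP3 rose from 10.4 ± 0.77 CPM to 18.8 ± 0.29 CPM in R1 and 18.7 ± 0.76 CPM in R2. LTBP4 fell from 185 ± 14.2 CPM to 78.2 ± 6.21 CPM and 102 ± 2.62 CPM. LTBP1 differed most between the resistant lines, with 8.90 ± 0.16 CPM in LIM1215-parental, 4.64 ± 0.55 CPM in R1 and 0.644 ± 0.20 CPM in R2 (log2 fold change between the resistant lines −2.84 ± 0.23 SE, edgeR adjusted p = 8.39e-10). It was the only gene of the list that was a DEG between them. ITGB6, a subunit of an integrin that releases active TGF-beta, rose from 4.91 ± 0.74 CPM to 9.68 ± 0.53 CPM in R1 (log2 fold change 0.98, edgeR adjusted p = 1.5e-06) and was at 6.80 ± 0.62 CPM in R2 (0.47, edgeR adjusted p = 0.0118, and 0.00265 after removal of the dependence on GC content and length). THBS1 and ITGB8, picked after their values were seen, passed the test in R2 only, in opposite directions. THBS1 was at 322.5 ± 8.70 CPM in LIM1215-parental, 337 ± 4.8 CPM in R1 and 199 ± 2.73 CPM in R2 (−0.695, edgeR adjusted p = 1.98e-13). ITGB8 was at 7.77 ± 0.18 CPM in LIM1215-parental, 7.56 ± 0.73 CPM in R1 and 11.67 ± 0.46 CPM in R2 (0.585, edgeR adjusted p = 0.000146).

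The SMADs of the list changed little except SMAD9. SMAD2, the partner of SMAD3, rose from 87.1 ± 3.34 CPM to 114 ± 7.19 CPM in R1 (log2 fold change 0.38, edgeR adjusted p = 3.07e-06) and 109 ± 2.69 CPM in R2 (0.32, edgeR adjusted p = 4.25e-05). SMAD1, a transducer of BMP signals, fell from 40.1 ± 2.23 CPM to 31.5 ± 0.90 CPM in R1 (−0.35, edgeR adjusted p = 0.000439). SMAD1 was at 32.6 ± 2.77 CPM in R2 (−0.30, edgeR adjusted p = 0.0022), a call lost without LIM1215-parental replicate 1 or 3 or R2 replicate 3 (edgeR adjusted p = 0.0182, 0.0104 and 0.023). SMAD4, the shared partner of both branches, fell in R1 from 68.8 ± 0.98 CPM to 57.5 ± 1.02 CPM (−0.26, edgeR adjusted p = 0.000501), but this call was lost after removal of the dependence on GC content and length (−0.09, edgeR adjusted p = 0.152). In R2 SMAD4 was at 63.5 ± 1.03 CPM (−0.11, edgeR adjusted p = 0.122). SMAD5, another transducer of BMP signals, was at 105 ± 6.26 CPM in LIM1215-parental, 114 ± 8.96 CPM in R1 (0.13, edgeR adjusted p = 0.0985, and 0.33 with 6.29e-09 after the same removal) and 120 ± 2.04 CPM in R2 (0.20, edgeR adjusted p = 0.00825). The call in R2 was lost without any 1 of 6 libraries, namely LIM1215-parental replicate 2 or 3, R1 replicate 3 or any R2 replicate, with edgeR adjusted p from 0.0135 to 0.0377. SMAD9, the least expressed of these transducers, was picked after its values were seen because it was the only DEG among them. It had 12, 15 and 15 counts in the LIM1215-parental libraries and none in the 6 resistant libraries, so it was at least 13.8-fold lower in both lines, against 3 counts over a group's libraries.

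Secreted antagonists were mostly silent in all lines. Of 16 listed, 12 had fewer than 10 counts over the 9 libraries, among them NOG with 6, GREM1 with 1 and CHRD with 1, and these were not tested. FSTL3, which binds activins, was at 251 ± 22.4 CPM in LIM1215-parental and fell to 192 ± 7.62 CPM in R2 (log2 fold change −0.39, edgeR adjusted p = 6.37e-06). Its level in R1 was 219 ± 18.4 CPM (−0.20, edgeR adjusted p = 0.00975), and this call was lost without any 1 of 6 libraries (LIM1215-parental replicate 2, R1 replicate 1 or 3, or any of R2), with edgeR adjusted p from 0.0101 to 0.0848. With DESeq2 it did not pass either (adjusted p = 0.0168), whereas after removal of the dependence on GC content and length FSTL3 was at −0.42 in R1 and passed (edgeR adjusted p = 1.72e-13). TWSG1, which modulates BMP binding, was at 64.0 ± 3.43 CPM in LIM1215-parental, 63.8 ± 2.43 CPM in R1 and 77.0 ± 8.67 CPM in R2 (0.27, edgeR adjusted p = 0.00336). Leaving out LIM1215-parental replicate 1 or 2 or R2 replicate 1 or 2 ended this call, with edgeR adjusted p from 0.0109 to 0.0398.

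Of 19 intracellular regulators, R1 had 4 higher and 2 lower, beside 14% and 13.4% of all genes, and R2 had 2 higher and 2 lower, which is close to the 12.3% and 11.6% of all genes. PMEPA1, a TGF-beta induced gene whose product holds back SMAD2 and SMAD3, rose from 7.44 ± 0.91 CPM to 19.4 ± 1.4 CPM in R1 (log2 fold change 1.39, edgeR adjusted p = 1.12e-10) and was at 9.07 ± 1.11 CPM in R2 (0.30, edgeR adjusted p = 0.0717). The resistant lines differed in PMEPA1 by −1.09 ± 0.11 SE on the log2 scale (edgeR adjusted p = 5.82e-08). The ubiquitin ligase WWP1 and the adaptor STRAP rose by similar amounts in both lines, with 0.35 and 0.31 on the log2 scale in R1 and 0.33 and 0.28 in R2. ZFYVE16, an endosomal anchor protein, fell in R1 from 57.4 ± 5.43 CPM to 40.4 ± 5.78 CPM (−0.51, edgeR adjusted p = 2.37e-05) and was at 54.3 ± 4.04 CPM in R2 (−0.08, edgeR adjusted p = 0.509).

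Several other target genes rose while ID1 and ID2 fell. With edgeR, R1 had 6 of 12 tested higher and none lower, beside 14% and 13.4% of all genes, and R2 had 5 higher and 1 lower, beside 12.3% and 11.6%. The median log2 fold changes were 0.83 and 0.88. The target lower in R2 was MSX2, a homeobox gene induced by BMPs that was picked after its values were seen. MSX2 was at 15.2 ± 1.75 CPM in LIM1215-parental, 12.9 ± 0.53 CPM in R1 (log2 fold change −0.23, edgeR adjusted p = 0.102) and 10.1 ± 1.19 CPM in R2 (−0.57, edgeR adjusted p = 0.000154). MSX1, another of the 12 targets, went the other way and was also picked after its values were seen. It was at 10.6 ± 1.05 CPM in LIM1215-parental and 14.2 ± 1.3 CPM in R1 (0.43, edgeR adjusted p = 0.00203). In R2 MSX1 was at 13.2 ± 0.07 CPM (0.32, edgeR adjusted p = 0.0219), which did not pass the test. At an unadjusted p under 0.05 from edgeR, 7 targets were higher and 1 lower in R1, and 7 were higher and 2 lower in R2. DESeq2 called 4 higher and none lower in R1, and 5 higher and 1 lower in R2. Beside MSX2, the target lower in R2 at the unadjusted limit was COL4A1, with 21 counts over LIM1215-parental and 3 over R2 (−2.62, edgeR adjusted p = 0.0167). CCN2 passed in neither line (0.10 and −0.14, edgeR adjusted p = 0.838 and 0.788). COL4A1 and CCN2 were picked after their values were seen. TGFBI, an extracellular matrix protein named for its induction by TGF-beta, had 14, 13 and 12 counts in LIM1215-parental, 458, 421 and 437 counts in R1 and 387, 357 and 355 counts in R2. It rose by 5.11 ± 0.14 SE on the log2 scale in R1 (edgeR adjusted p = 1.44e-20) and by 4.85 ± 0.15 SE in R2 (edgeR adjusted p = 6.92e-20). CDKN1A, a cell cycle inhibitor that p53 also induces, rose from 111 ± 6.78 CPM to 387 ± 29.0 CPM in R1 (1.80, edgeR adjusted p = 7.05e-20) and 215 ± 5.31 CPM in R2 (0.95, edgeR adjusted p = 5.66e-14). ID4, the fourth ID gene, was at 0.764 ± 0.18 CPM in LIM1215-parental and rose to 2.37 ± 0.15 CPM in R2 (1.59, edgeR adjusted p = 0.000175), opposite to ID1 and ID2. In R1 ID4 was at 1.52 ± 0.67 CPM (0.95, edgeR adjusted p = 0.0257), which passed only without R1 replicate 1 (1.26, edgeR adjusted p = 0.0019).

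**Figure D4:**
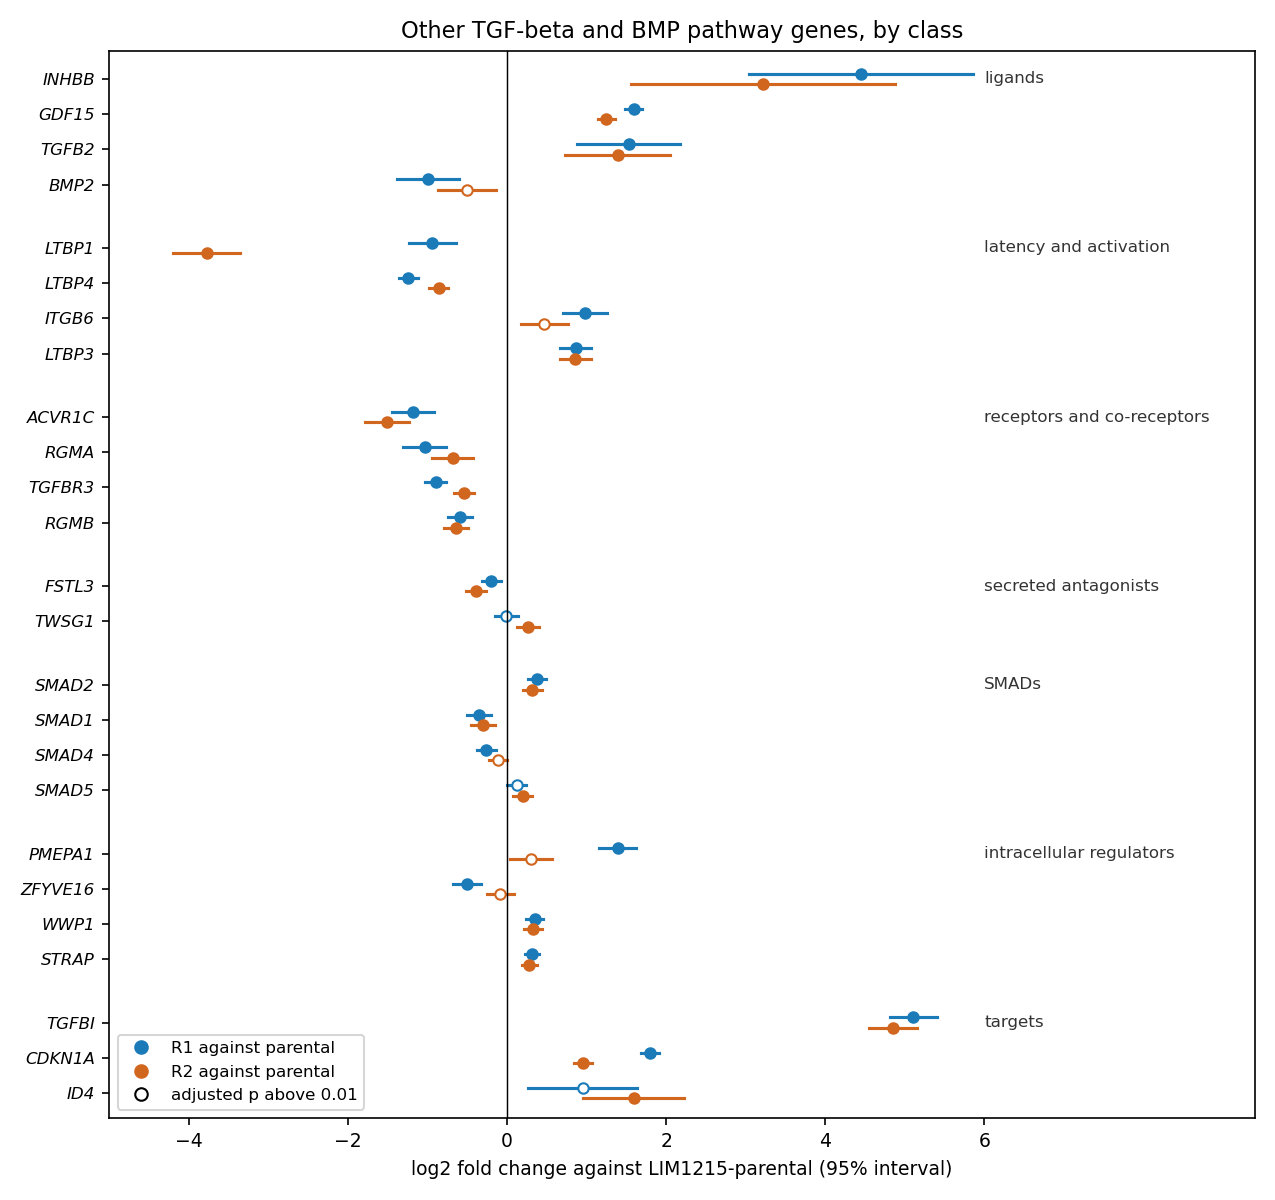
Log2 fold changes with 95% intervals on the horizontal axis for further pathway genes by class, in R1 and R2 against LIM1215-parental, with open points where the adjusted p was above 0.01. The receptors and co-receptors shown lie left of 0 in both lines, and the targets shown lie right of 0, with TGFBI at 5.11 and 4.85.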

How the data were processed

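The authors mapped paired-end reads of stranded poly(A) libraries to hg38 using STAR, assigned sense-strand reads to genes with htseq-count (HTSeq 0.9.1, from the submitters' processing notes) and deposited raw counts, 1 file per library, without normalization. The gene annotation used for counting is not given in the sources used here. None of the 10 genes overlaps an exon of another gene on its strand in GENCODE.

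The analysis used edgeR 4.0.16 under R 4.3.3. The filter was a sum of 10 counts over all libraries, which 19102 genes reached, TMM factors lay between 0.984 and 1.02, and a quasi-likelihood model with 3 lines was fitted to all 9 libraries. p-values were adjusted over all genes tested by the Benjamini-Hochberg method. The limit for a call was an adjusted p of 0.01, and DEGs also needed a log2 fold change of 1.5 or more in size. DESeq2 1.42.0 was an alternative, beside other filters, scalings, a replicate block, removal of the dependence on GC content and length, and each library left out in turn. The 10 genes and all lists were chosen with earlier results of these data known. From the wider list, up to 4 called genes per class with at least 1 CPM were named, by the size of their change. One gene that this rule names is not reported here. The tests were tried on simulated counts. No 2 libraries of a line agreed within sampling noise (chi-square per degree of freedom 1.88 to 6.57). Intervals from counts cover counting error only.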

Additional observations from a re-analysis of the deposited data

Results flagged for a closer look

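For 3 of the 10 genes the change against LIM1215-parental differed between the resistant lines, tested as LIM1215-R2 against LIM1215-R1 with edgeR. ID3 differed by 0.41 on the log2 scale (adjusted p = 9.06e-05), with a fall in LIM1215-R1 and values that overlapped with LIM1215-parental in LIM1215-R2. ID2 differed by 0.30 (edgeR adjusted p = 1.94e-05), with a fall in both lines that was smaller in LIM1215-R2. BAMBI differed by −0.31 (edgeR adjusted p = 0.00527), and this call was lost when any of 4 single libraries was left out, with values between −0.22 and −0.34 and adjusted p from 0.0126 to 0.0781.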

How the results depend on the processing

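The count of the 10 genes called against LIM1215-parental stayed at 7 in LIM1215-R1 and 5 in LIM1215-R2 with any single library left out. Between the resistant lines it was 2 to 3 with a library left out and 6 with GC content and length trends removed, where the cause was not tested and where GC content and length were known for 86.3% of the genes tested. None of the 10 genes in any comparison, and 10, 8 and 1 of the wider list in the 3 comparisons, also had a log2 fold change of at least 1.5. The wider list gave 10 to 18 calls between the resistant lines with a library left out, with 10 without LIM1215-R2 replicate 2. Replicate numbers did not pair the libraries: only 3 of 9 same-numbered pairs deviated together with r above 0.1 (range −0.107 to 0.274), and 7 of 18 best matches were with the own number. With the replicate number as a replicate block, 7, 5 and 3 of the 10 genes and 40, 35 and 18 of the wider list were called. Scaling alternatives moved the median of all genes by at most 0.0344 in log2.

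Changes of sign occurred only in values that did not pass the test. Between the resistant lines, TGFB1 was 0.01 with total counts and 0.046 with trends removed, and −0.062 to 0.023 with a library left out. LTBP3 was 0.014 and 0.02 in these settings and −0.03 to 0.029 with a library left out, and SMAD5 was −0.063 with trends removed. With a library left out, TGFBR2 lay between −0.114 and 0.067, SMAD7 between −0.096 and 0.014, TGFB2 between −0.335 and 0.164 and SMAD1 between −0.006 and 0.112. TWSG1 in LIM1215-R1 against LIM1215-parental was 0.005 without a filter, 0.001 with 10 counts in every library, 0.002 with DESeq2 size factors, 0.003 with DESeq2, 0 in the 6 libraries and 0.152 with trends removed, and −0.038 to 0.038 with a library left out.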

Other observations

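Markers of the epithelium also differed between the lines. The keratins KRT8 and KRT18 and the brush border gene VIL1 rose in both resistant lines, by 0.46, 0.41 and 0.40 on the log2 scale in LIM1215-R1 and by 0.33, 0.28 and 0.26 in LIM1215-R2. CDX2, an intestinal transcription factor, fell by 0.44 and 0.55, and the intestinal cadherin CDH17 by 0.53 and 0.58 on the log2 scale. EPCAM, an epithelial adhesion molecule, fell by 0.27 and 0.32 on the log2 scale (edgeR adjusted p = 8.48e-06 and 4.12e-07). CDH1, the epithelial cadherin, was at −0.14 and −0.12 and did not pass the test (edgeR adjusted p = 0.0129 and 0.0297). Their part in the changes of the pathway genes was not tested.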
